A study of Mus musculus and Homo sapiens with 10 samples.

Results

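The gene for the upstream binding factor (UBF), UBTF in human and Ubtf in mouse, and 3 human genes for other nucleolar proteins, POLR1A, NCL and NPM1, were examined for UBF and RNA polymerase I (Pol I) peaks. Members were chosen by gene name and by the measured peak positions: every deposited peak that overlapped the interval of a gene, widened by 5 kb on both sides, by at least 1 bp. This took 36 of the 208002 peaks in the 10 lists of the series. Of these, 17 lay in the windows of the 4 human genes and 19 in the window of mouse Ubtf. The human windows were read in 3 lists, with 9 peaks from UBF in HMLER, 6 from UBF in HMEC and 2 from Pol I in HMEC. The mouse window was read in the 7 lists of NIH3T3 cells, with 1 peak of UBF, 0 of Pol I, 8 of Pol II, 2 of H3K4me3, 3 of H3K9ac, 3 of hyperacetylated H4 and 2 of H3K9me3.

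The lists come from chromatin immunoprecipitation followed by sequencing (ChIP-seq) of growing cells. HMLER is a tumorigenic line made from HMEC that expresses SV40 large-T, TERT and an oncogenic HRAS allele (HRASV12G), HMEC is a human mammary epithelial line immortalized by TERT, and NIH3T3 is an immortalized mouse fibroblast line. TERT is thus common to HMLER and HMEC. UBF was precipitated with a rabbit polyclonal antibody to UBF1/2, Pol I with antibodies to its largest subunit (the product of POLR1A) and Pol II with an antibody to its serine-5-phosphorylated C-terminal repeat. Each antibody and line is represented by 1 list of peak positions without score or read count, so depth is unknown, there is no replicate error, and no difference was tested. The HMLER UBF list is longer and its peaks wider (32274 peaks, median width 982 bp) than the HMEC UBF list (9478 peaks, 469 bp). The HMEC Pol I list holds 9294 peaks with a median of 290 bp. In NIH3T3 the UBF list holds 3704 peaks with a median of 981 bp and the Pol I list 1409 peaks with a median of 230 bp.

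UBF binds along the ribosomal RNA genes in the nucleolus, where it opens the chromatin and helps to recruit Pol I, the polymerase that makes the large ribosomal RNA precursor. POLR1A is the catalytic, largest subunit of Pol I. NCL (nucleolin) and NPM1 (nucleophosmin) are abundant nucleolar proteins that take part in the processing of ribosomal RNA and in ribosome assembly. All of these proteins are themselves encoded by genes that Pol II transcribes. H3K4me3 marks the promoters of active genes, H3K9ac and hyperacetylated H4 mark open chromatin, and H3K9me3 is best known from silent chromatin.

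The results turn on the 5′ part of Ubtf, where the NIH3T3 UBF peak lay, so its promoter sequences are shown first. RefSeq gives 6 transcription start sites for mouse Ubtf, spread over 4157 bp on the minus strand of chromosome 11 in GRCm38.p6. The peaks are in mm9, and the positions of the starts were not carried over to it. From the most upstream start to the most downstream, the GC content of the 300 bases around each start was 46.3%, 56.3%, 60.0%, 82.3%, 75.7% and 72.0%, against a median of 52.7% over 32851 RefSeq mouse promoters. They held 6, 11, 27, 39, 40 and 31 CG pairs, against a median of 7, so that the 4 downstream promoters were rich in CG and the 2 upstream ones were not far from the median. The GC box GGGCGG, searched on both strands (as GGGCGG or CCGCCC, overlapping matches counted), occurred in 5 of the 6, against 35.7% of all the promoters. The E-box CACGTG, which reads the same on both strands, occurred in 0 of the 6, against 7.15% of all. The 6 belong to 1 gene, and no share was computed for promoters of like GC content. The promoters with the most and the fewest GC boxes, 8 and 0, are those of start 4, counted from the upstream end, and of start 1, the most upstream. They are printed 5′ to 3′ on the minus strand, in lower case with GC boxes in capitals, and lie at chr11:102317822-102318121 and chr11:102320813-102321112 of GRCm38.p6.
Ubtf start 4: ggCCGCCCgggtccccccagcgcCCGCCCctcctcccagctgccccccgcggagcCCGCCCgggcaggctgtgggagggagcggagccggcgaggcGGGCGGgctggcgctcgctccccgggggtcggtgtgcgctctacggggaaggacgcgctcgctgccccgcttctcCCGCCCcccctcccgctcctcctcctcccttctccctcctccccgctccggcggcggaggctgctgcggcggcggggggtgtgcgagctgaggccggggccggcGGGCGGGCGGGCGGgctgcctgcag
Ubtf start 1: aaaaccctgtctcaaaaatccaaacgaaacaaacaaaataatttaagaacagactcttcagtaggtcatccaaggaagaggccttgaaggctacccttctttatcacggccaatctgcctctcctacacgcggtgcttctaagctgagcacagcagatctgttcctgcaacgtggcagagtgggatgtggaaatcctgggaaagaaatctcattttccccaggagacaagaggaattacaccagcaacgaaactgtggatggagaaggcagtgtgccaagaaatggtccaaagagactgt

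The first question was whether UBF lies on its own gene, and a UBF peak was listed there in all 3 cell lines. In NIH3T3 cells 1 UBF peak of 4177 bp lay in the 5′ part of Ubtf, on chromosome 11 from 102177828 to 102182005 (mm9). It was the sixth widest of the 3704 UBF peaks of that list, in the top 0.162% by width. The peak began 495 bp inside the upper (5′) end of the gene interval and ended 4672 bp inside it. That interval, from 102165000 to 102182500, is given in round numbers, so these distances are approximate. UBF covered 15.2% of the Ubtf window, against 0.150% of all windows of the same length (27.5 kb) tiled over the genome. Of those tiled windows 3.79% held a UBF peak. Both shares are over all windows, with or without a gene, and the 0.150% includes windows that held no peak. Among the tiled windows that held an H3K4me3 peak, 11.3% had a UBF peak. The next UBF peak lay 49.1 kb beyond the edge of the window, so the Ubtf peak was not part of a run of UBF peaks.

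The Ubtf UBF peak lay in active chromatin from end to end. It was contained in a single peak of Pol II, a single peak of H3K4me3, a single peak of H3K9ac and a single peak of hyperacetylated H4. In the whole UBF list 499 of 3704 peaks (13.5%) were contained in this way in all 4 lists. The Pol II peak, from 102177604 to 102182122 (4518 bp), followed the UBF peak closely: UBF covered 92.5% of it. The H3K4me3 peak ran from 102176252 to 102182474 (6222 bp), the H3K9ac peak from 102175492 to 102182719 (7227 bp) and the H4 peak from 102177412 to 102182636 (5224 bp). UBF covered 67.1%, 57.8% and 80.0% of them. All 4 were in the top 1.60% of their own lists by width. The 3 histone peaks reached the 5′ end of the gene interval or came within 26 bp of it. The Pol II peak stopped 378 bp short of that end and the UBF peak 495 bp. The end is a round number and not a mapped start site, so these distances do not place the peaks against a promoter. Of the 380 H3K4me3 peaks at least as wide as that of Ubtf, 105 (27.6%) overlapped a UBF peak. The same count was 54 of 241 (22.4%) for H3K9ac, 21 of 135 (15.6%) for Pol II and 76 of 665 (11.4%) for H4.

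A peak of H3K9me3, the mark best known from silent chromatin, shared part of the same stretch. It ran from 102177357 to 102179157 (1800 bp) and covered the downstream 1329 bp, or 31.8%, of the UBF peak. The upstream part of the UBF peak had no listed H3K9me3 peak. In the whole list 16.2% of UBF peaks overlapped H3K9me3, and 193 peaks (5.21%) had both H3K9me3 and containment in the 4 active lists. Of the 6 UBF peaks at least as wide as that of Ubtf, itself included, 5 overlapped H3K9me3. They are few, and a wide peak has more room to overlap another list than a narrow one.

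Pol I was not found beside UBF at Ubtf. The NIH3T3 Pol I list had 0 peaks in the window, and the nearest on the chromosome lay 82.5 kb beyond its edge. The UBF peak at Ubtf thus had 0 overlaps with Pol I, against 7.32% of the 3704 UBF peaks. Among the 6 UBF peaks at least as wide as that of Ubtf, itself included, 1 overlapped Pol I. Of the tiled windows as long as the Ubtf window, 1.38% held a Pol I peak, and 5.46% of those with an H3K4me3 peak did. The list is short and its depth unknown, so Pol I below its threshold could not have been seen.

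**Figure D1:**
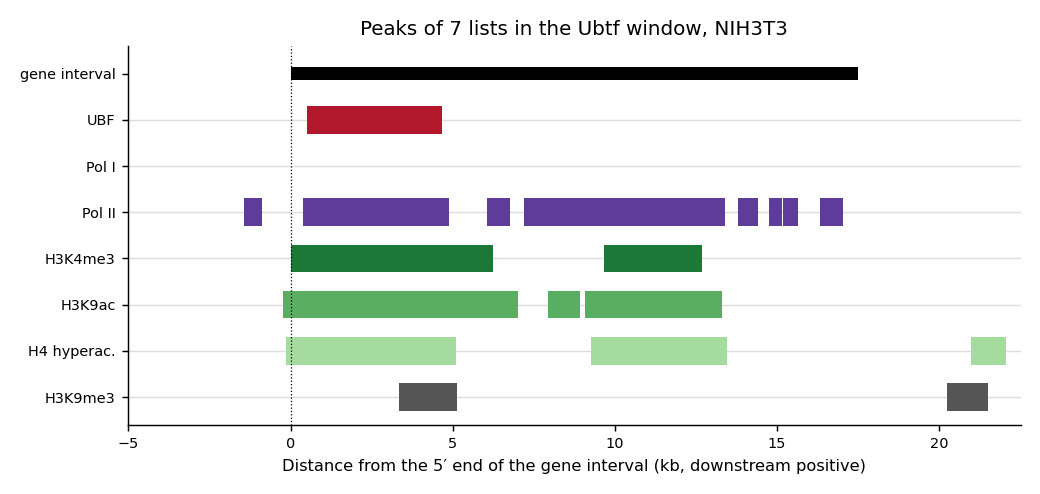
Peaks of the 7 NIH3T3 lists in the window of Ubtf, as distance in kb from the 5′ end of the gene interval (dotted line, downstream to the right). The black bar is the gene interval and each coloured bar a peak. The single UBF peak of 4177 bp lies within the 5′ block of Pol II, H3K4me3, H3K9ac and H4 hyperacetylation, and the second block further downstream has no UBF peak.

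A second block of active marks, without UBF, lay further inside Ubtf. Its Pol II peak ran from 102169110 to 102175303, between 7197 and 13390 bp from the 5′ end. With 6193 bp it was the widest Pol II peak of the window and number 36 of 30239 in the list. It overlapped an H3K4me3 peak of 3017 bp, H3K9ac peaks of 4241 and 994 bp and an H4 peak of 4202 bp. No UBF peak and no H3K9me3 peak was listed there. Of the 36 Pol II peaks at least this wide, 6 (16.7%) overlapped UBF. The 6 other Pol II peaks of the window were much narrower, at 402 to 707 bp, against a list median of 683 bp. Of these, 4 lay downstream of the second block, towards the 3′ end. Pol II covered 51.5% of the window, H3K9ac 45.3%, hyperacetylated H4 38.2%, H3K4me3 33.6% and H3K9me3 11.1%. Over all tiled windows these marks covered 1.01%, 2.06%, 2.40%, 2.12% and 1.06%. A peak was present in 15.4% of tiled windows for Pol II, 18.5% for H3K9ac, 22.2% for H4, 19.8% for H3K4me3 and 17.9% for H3K9me3. Among the tiled windows with an H3K4me3 peak it was present in 66.2% for Pol II, 88.7% for H3K9ac, 91.6% for H4 and 34.8% for H3K9me3.

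At the 3′ margin of the window an H3K9me3 peak of 1254 bp and an H4 peak of 1070 bp overlapped by 504 bp, outside the gene interval. The edge of the window cut through no NIH3T3 peak. Peaks of Pol II, H3K4me3, H3K9ac and H4 of 2887 to 4559 bp lay 364 to 852 bp beyond the 3′ edge, and peaks of the 3 active histone marks lay 539 to 693 bp beyond the 5′ edge. In the RefSeq gene table (GRCm38.p6) the next protein-coding genes are Gm33851 and Atxn7l3 on the 3′ side and Slc4a1 on the 5′ side, but these peaks were not assigned to them.

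In HMLER 6 UBF peaks lay in the window of UBTF, against 1 in each of the 3 other human windows, and in HMEC 2, as at NCL and NPM1. The whole lists hold 32274 peaks in HMLER and 9478 in HMEC, a difference in length that bears on every such count. Within the gene interval itself, without the margin, 3 of the HMLER peaks and both HMEC peaks remained. The gene interval runs on chromosome 17 from 42282401 to 42298994 (hg19), and the gene is read from the upper end down. The widest HMLER peak lay across the 5′ end, from 42295440 to 42300438 (4998 bp), reaching 1444 bp upstream of the end and 3554 bp into the gene. It was number 85 of the 32274 HMLER peaks by width, in the top 0.263%. Like the NIH3T3 peak on Ubtf, it was among the widest of its list, although the 2 lists were called in different species and cannot be compared in height.

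In HMEC the same stretch held 2 smaller UBF peaks, both contained in the wide HMLER peak. The first, from 42298511 to 42299011 (500 bp), covered the 5′ end itself, from 17 bp upstream to 483 bp downstream. The second, from 42297533 to 42298251 (718 bp), lay 743 to 1461 bp inside the gene, and a gap of 260 bp separated the 2. Both were wider than the HMEC median of 469 bp, and the 718-bp peak was wider than 82.1% of the list. Together the HMEC peaks covered 24.4% of the wide HMLER peak. In the whole HMLER list 593 peaks (1.84%) held 2 or more HMEC peaks. Among the 85 HMLER peaks at least as wide as that of UBTF, 46 (54.1%) did.

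In HMEC a Pol I peak was listed on UBTF, whereas the NIH3T3 list held none on Ubtf, a difference between lists of different species that was not tested. The lists also differ in length, with 9294 Pol I peaks in HMEC and 1409 in NIH3T3. Of tiled windows as long as the gene's own, 7.34% and 1.38% held a Pol I peak, so none at Ubtf was the common outcome. A Pol I peak of 234 bp, from 42297762 to 42297996, lay inside the 718-bp HMEC UBF peak, 998 to 1232 bp downstream of the 5′ end, and so inside the wide HMLER UBF peak as well. It was narrower than the median Pol I peak of that list (290 bp). A Pol I peak wholly inside a UBF peak occurred at 113 of the 9478 HMEC UBF peaks (1.19%). The stretch from 42297762 to 42297996 was the only part of the 4 human windows covered in all 3 lists. In the whole HMLER list 327 peaks (1.01%) overlapped both HMEC UBF and HMEC Pol I.

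The 5 other HMLER peaks in the UBTF window had no counterpart in either HMEC list. One of 887 bp lay upstream, 264 bp beyond the wide peak. A pair of 936 and 1188 bp lay 10604 to 13753 bp from the 5′ end, and a peak of 724 bp just below the 3′ end of the interval, from 42281625 to 42282349. The last, of 2881 bp, lay beyond the 3′ end of the interval and crossed the edge of the window, with 1260 bp inside. Of the 9993 bp of the UBTF window covered by HMLER UBF peaks, 5678 lay within the gene interval. HMLER UBF peaks covered 37.6% of the UBTF window, HMEC UBF peaks 4.58% and HMEC Pol I peaks 0.880%. The shares over all tiled windows of that length (26.6 kb) were 1.26%, 0.172% and 0.0931%, and 19.2%, 6.93% and 7.34% of the tiled windows held a peak of these lists.

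**Figure D2:**
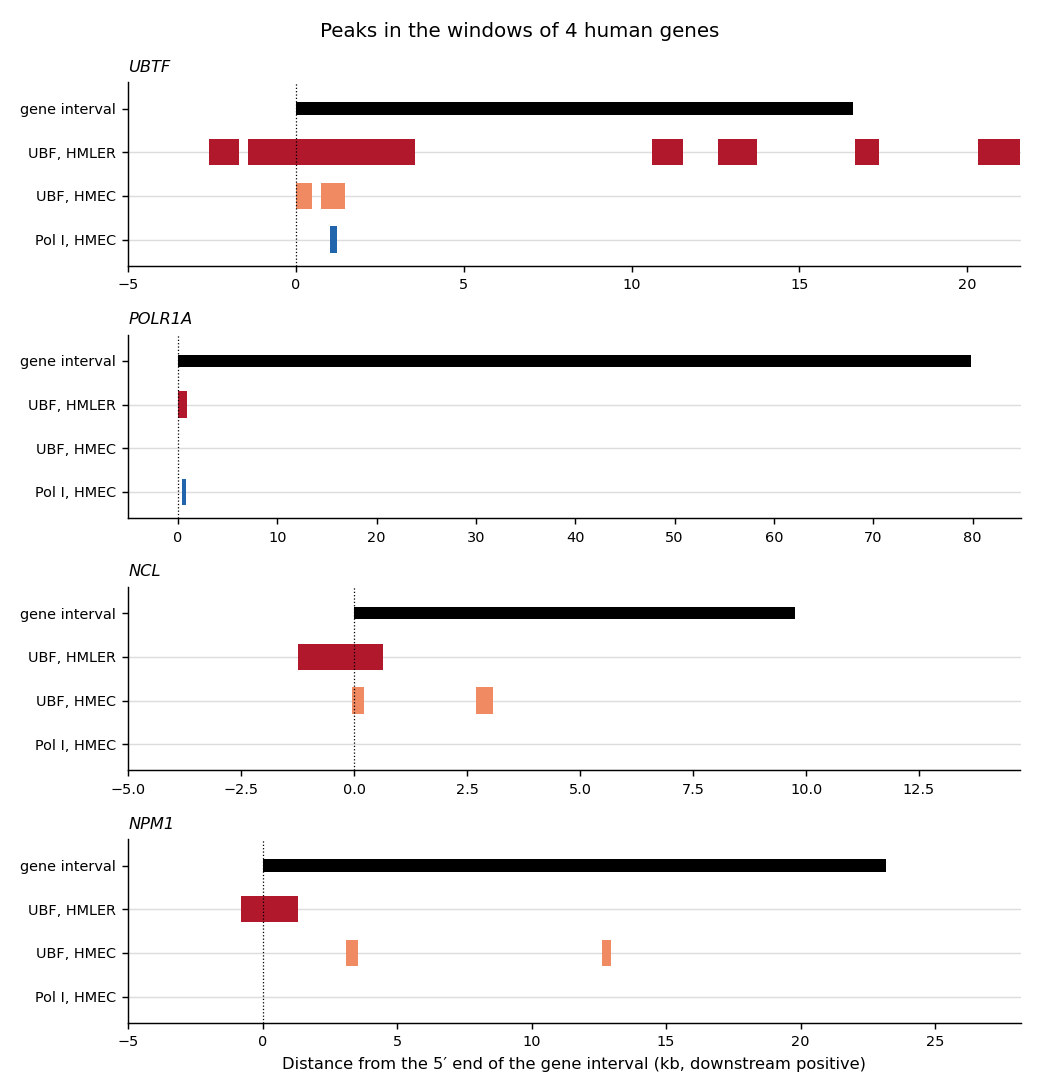
Peaks of the 3 human lists in the windows of UBTF, POLR1A, NCL and NPM1, as distance in kb from the 5′ end of the gene interval (dotted line, downstream to the right, with a separate scale for each gene). Black bars are the gene intervals. HMLER UBF peaks lie on the 5′ end of UBTF, NCL and NPM1 and within 21 bp of it at POLR1A, whereas HMEC UBF peaks lie on that of UBTF and NCL only. No share over the 5′ ends of other genes was computed.

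POLR1A, the gene for the largest Pol I subunit, had 1 HMLER UBF peak and 0 HMEC UBF peaks. The HMLER peak lay on chromosome 2 from 86332402 to 86333257 (855 bp), narrower than the median of its list, and began 21 bp downstream of the 5′ end of the interval (86253452 to 86333278, read from the upper end). The HMEC Pol I list had a peak at the same place, from 86332434 to 86332887 (453 bp). It lay inside the HMLER UBF peak and covered 53.0% of it. This Pol I peak was wide for its list, wider than 96.3% of the 9294 peaks. The Pol I antibodies recognise the POLR1A protein, so the listed peak lies on the gene for the precipitated subunit. Whether the enzyme itself was bound there was not tested. HMLER UBF with HMEC Pol I and without HMEC UBF was found at 792 HMLER peaks (2.45%) in the whole list. The window of POLR1A is long, at 89.8 kb, and the remaining length of the gene held no listed peak. Of tiled windows of that length 39.2% held an HMLER UBF peak, 19.0% an HMEC UBF peak and 21.1% an HMEC Pol I peak, so a peak somewhere in such a window was common. HMLER UBF covered 0.952% of the POLR1A window, which was below the 1.26% of all tiled windows. HMEC Pol I covered 0.504%, which was above the 0.0931% of all. The shares over all windows include those without a peak, so a window that holds a peak tends to lie above them.

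NCL and NPM1 had UBF peaks in both human lines and no Pol I peak. At NCL (chromosome 2, 232319459 to 232329205, read from the upper end) the HMLER peak ran from 232328579 to 232330453 (1874 bp), from 1248 bp upstream of the 5′ end to 626 bp downstream. One HMEC peak, from 232328991 to 232329244, lay inside it and on the 5′ end. With 253 bp it was one of the narrowest of its list, of which 0.855% were narrower. The other HMEC peak on NCL, from 232326138 to 232326521 (383 bp), lay 2684 to 3067 bp inside the gene, where HMLER had no listed peak. HMLER UBF covered 9.49% of the NCL window (19.7 kb) and HMEC UBF 3.22%. The nearest HMEC Pol I peak lay 80.6 kb beyond the window. Of tiled windows of that length 15.7% held an HMLER UBF peak, 5.31% an HMEC UBF peak and 5.57% an HMEC Pol I peak.

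At NPM1 the UBF peaks of the 2 lines lay at different places. The gene interval (chromosome 5, 170814708 to 170837888) is read from the lower end up. In HMLER 1 peak, from 170813910 to 170816020 (2110 bp), lay across the 5′ end, from 798 bp upstream to 1312 bp downstream, and was wider than 89.8% of its list. The 2 HMEC peaks lay further inside the gene. The first, from 170817812 to 170818249 (437 bp), was 3104 to 3541 bp from the 5′ end, and the second, from 170827314 to 170827662 (348 bp), was 12606 to 12954 bp from it. Neither overlapped the HMLER peak, and neither was wider than the HMEC median. HMLER UBF covered 6.36% of the NPM1 window (33.2 kb) and HMEC UBF 2.37%. The nearest HMEC Pol I peak lay 55.7 kb beyond the window. A further HMLER peak of 3156 bp lay 2427 bp beyond the 3′ edge of the window and was not counted. Of tiled windows of that length 22.3% held an HMLER UBF peak, 8.42% an HMEC UBF peak and 8.94% an HMEC Pol I peak.

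**Figure D3:**
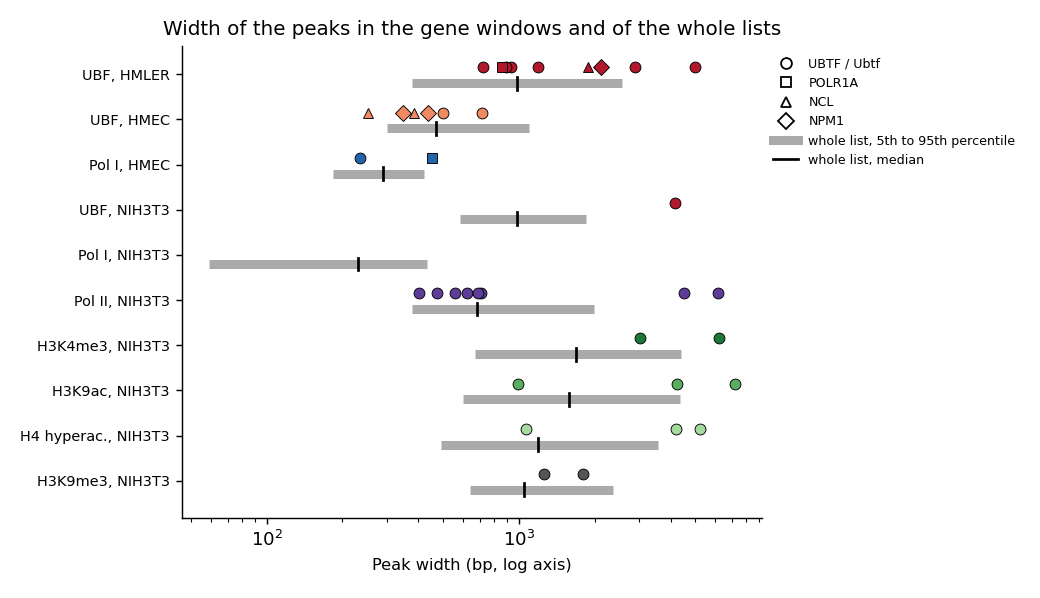
Width in bp (log axis) of each peak in the gene windows, as coloured symbols by gene, for each list. The grey bar under them gives the 5th to 95th percentile of the whole list and the black tick its median. The UBF peak on Ubtf (4177 bp) and the widest HMLER UBF peak on UBTF (4998 bp) lie beyond the 95th percentile. HMLER UBF peaks of 724, 855, 887 and 936 bp lie below their list's median of 982 bp, and the others above it. HMEC UBF peaks in the windows lie near or below the list's median, apart from the 718-bp peak on UBTF.

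Across the 4 human genes the HMLER UBF list had a peak in 4 of 4 windows, the HMEC UBF list in 3 and the HMEC Pol I list in 2. Of tiled windows as long as these, 15.7% to 39.2% held an HMLER UBF peak. For HMEC UBF the range was 5.31% to 19.0% and for HMEC Pol I 5.57% to 21.1%. Among tiled windows that held a peak of another of the 3 lists, the ranges were higher. They were 51.6% to 71.1%, 20.3% to 36.2% and 13.2% to 34.5%, in the same order. In the wider 50% of each list the gene windows with a peak were 3, 1 and 1. UBTF was the window that kept an HMEC UBF peak and POLR1A the one that kept an HMEC Pol I peak. The 5′ end of the interval was covered by an HMLER UBF peak at UBTF, NCL and NPM1 and by an HMEC UBF peak at UBTF and NCL. Without an annotation, no share of covered 5′ ends over all genes was computed. The tiled shares are for a peak anywhere in a window, so whether these counts are unusual for genes was not tested. No HMEC Pol I peak covered a 5′ end: the 2 lay 391 and 998 bp downstream of it. Of the 9 HMLER UBF peaks in the windows 2 overlapped an HMEC UBF peak, against 14.6% of the whole list. Of the 6 HMEC UBF peaks 3 overlapped an HMLER UBF peak, against 56.8% of the whole list. Pol I was met by 2 of the 9 HMLER UBF peaks (3.47% of the whole list) and by 1 of the 6 HMEC UBF peaks (2.72%). The members are few, and these counts rest on single peaks. The windows differ in length, and the thresholds of the lists are unknown. With 1 list per line the difference between the lines was not tested. Lower binding, fewer peaks called and fewer reads in HMEC cannot be told apart.

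**Figure D4:**
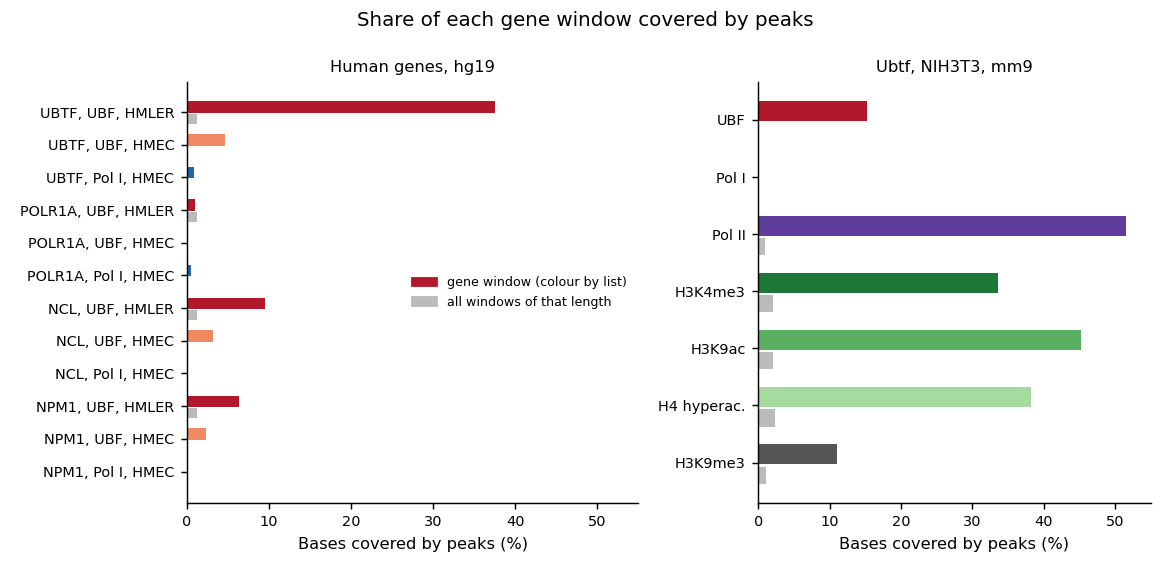
Share of the bases in each gene window covered by peaks (%, coloured bars) and of all tiled windows of the same length (grey bars), for the 3 human lists at 4 genes (left) and the 7 NIH3T3 lists at Ubtf (right). The grey bars include windows without a peak. The largest UBF share is that of HMLER at UBTF (37.6% of the window, peaks outside the gene interval included). At POLR1A the HMLER share (0.952%) is below that of all windows (1.26%).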

How the data were processed

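ChIP-seq peak lists of 10 samples were analysed, 3 human and 7 mouse. Each file deposited by the authors holds 3 columns, the chromosome, start and end of each peak, and no score. Per the submitters' processing notes, the genome builds were hg19 and mm9 and the tools included BWA, CASAVA 1.8.2 and Picard, with no role given. For the peak caller, its threshold and any pooling of replicates, the sources used here give nothing. For UBF in NIH3T3 the design mentions 2 biological replicates, which 1 list represents. Each list was taken as 1 sample (n = 1), so no difference was tested. Genomic DNA inputs were not analysed here.

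Gene intervals were taken as given with the choice of members. The members and lists were chosen with earlier results of these data known. The rule for named genes was that the 5 genes, and all peaks in their windows, are reported. No gene annotation of mm9 or hg19 was used. The strand of the human genes is background knowledge and that of Ubtf comes from the RefSeq promoter table, so a 5′ end is that of the interval, not a mapped start site, and exons and introns were not assigned. Coordinates are as in the files, whose counting origin is not given. Width is end minus start.

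For the background, chromosomes 1 to 22 or 1 to 19 and X were tiled, from the first base to the last peak of the species' lists, with windows as long as each gene window, and windows with at least 1 bp of peak were counted. The tiling and overlap code was tested on simulated data with planted overlaps (Python 3.11.15). Other Pol I and nucleolar genes could not be placed without an annotation and were not analysed here. Alternatives were no margin, a margin of 10 kb, an overlap of at least 50%, the wider 50% of each list, and another tiling.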

Additional observations from a re-analysis of the deposited data

How the results depend on the processing

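No paired analysis was possible because each antibody and cell line has 1 list and the labels carry no replicate numbers. Leaving out a replicate was not possible for the same reason. The alternatives were no margin, a margin of 10 kb, an overlap of at least 50% and the wider 50% of each list. Under all of them the number of NIH3T3 lists with a peak at Ubtf was 6 of 7. The count of 0 Pol I overlaps at Ubtf could not change under them, because the nearest Pol I peak lay 82.5 kb beyond the window. The number of human windows with an HMLER UBF peak was 4 of 4 under the first 3 alternatives and 3 in the wider 50%, without POLR1A. With the wider 50% of each list, 1 window held an HMEC UBF peak (UBTF) and 1 an HMEC Pol I peak (POLR1A). Peak bases summed over the 4 human windows were then 1218 in place of 2639 for HMEC UBF and 453 in place of 687 for HMEC Pol I. HMLER UBF peaks overlapping HMEC UBF were then 1 of 5, in place of 2 of 9. HMLER UBF peaks overlapping Pol I were 0 of 5, in place of 2 of 9, and HMEC UBF peaks overlapping Pol I 0 of 2, in place of 1 of 6. With an overlap of at least 50% these 3 counts were 0 of 8, 1 of 8 and 0 of 6. Without a margin the HMLER UBF bases were 8471 in place of 14832, since peaks outside the gene intervals were left out and those across the 5′ end of UBTF, NCL and NPM1 lost their upstream 1444, 1248 and 798 bp. The 19 shares of tiled windows moved by less than their counting error when the tiling was shifted by 50% of a window. Among windows that already held a peak of another of the 3 human lists they were higher, at 51.6% to 71.1% for HMLER UBF, 20.3% to 36.2% for HMEC UBF and 13.2% to 34.5% for HMEC Pol I. Those of the NIH3T3 lists among windows with an H3K4me3 peak were higher too. Depth and threshold are unknown, so a missing peak does not show missing binding.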
